A study of Rattus norvegicus with 6 samples.

Results

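The hypothalamus of rats given 30 days of heat together with hypohydration was compared with that of untreated, euhydrated controls, and the combined change was set against the sum of the changes seen with each treatment alone. The comparison used 4 of the 6 deposited samples. They were the control, a sample after 30 days of heat (long-term acclimation) in euhydrated rats, a sample from rats hypohydrated by water deprivation to a 10% loss of body weight, and a sample with both treatments. These are called the control, the heat, the hypohydrated and the combined sample, and the heat and hypohydrated samples are the single treatments. All 884 array probes of the deposited table were taken. The other samples, of 2 days of heat with and without hypohydration, entered only the normalization and a side-by-side count. The labels give no strain, sex, age or temperature, and they describe the heated rats as taken before and during the exposure, so the stage is taken as named. Nothing says whether animals were pooled.

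The hypothalamus holds the neurons that sense blood osmolality and core temperature and that drive thirst, vasopressin release and heat loss, which in rats works through saliva spread on the fur and wider vessels of the tail. Evaporative cooling spends water, so a dehydrated animal in the heat has to hold water and lose heat at once, and dehydration is known to shift the onset of heat loss to a higher body temperature. Long-term heat acclimation is known to lower the threshold for heat loss and to change gene expression in several tissues. The transcripts classically raised by osmotic stress in this region are those of vasopressin and oxytocin, and heat stress classically raises chaperone transcripts. None of these could be looked up here. The identifiers start with R (508 probes) or RG (376 probes). None are paired with genes in the files, and the rat gene table matched 0 of all 884. Probes are therefore given by identifier, with no gene, no position and no sequence, and the tissue label could not be checked against marker genes.

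Each group holds 1 deposited column of processed array intensities, so no value below has a replicate check, an error or a p-value. The submitters' design text speaks of 9 arrays for each hydration state, which has 3 columns here, so arrays may have been averaged. A count of probes past a threshold describes these samples. The values were quantile-normalized over the 6 samples, which gives every sample the same distribution, and values under 0.143 (the 10th percentile) were set to that floor. The spread of deposited values over probes, as the SD on the log2 scale, was 1.49 for the control and 1.35 for the heat sample, but 0.66 for the hypohydrated and 0.99 for the combined sample. The deposited medians were 0.397, 0.353, 0.686 and 0.565 in the same order.

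With both treatments, a large part of the array differed from the control. Of 869 probes above the floor in the combined or the control sample, 180 were at least 2-fold higher in the combined sample (20.7%) and 200 were at least 2-fold lower (23.0%). The median change over these probes was -0.04 log2 units, and the lower and upper quartiles were -0.93 and 0.84. In the values as deposited the split was 300 higher and 112 lower, with a median change of 0.34, and with median scaling it was 189 and 251, with a median of -0.16. The balance of higher and lower probes therefore depends on the scaling. All 180 higher probes and all 200 lower probes kept their sign under both other scalings. Of the 180, 154 were at least 2-fold higher under all 3 scalings, and of the 200, 104 were at least 2-fold lower under all 3. For comparison, 2 days of heat with hypohydration gave 199 of 867 probes at least 2-fold higher (23.0%) and 187 lower by 2-fold or more (21.6%), against the same control.

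Not every probe could be followed through all 4 samples. 649 probes lay above the floor in each of them, and 235 lay at the floor in at least 1. In 74 of the 235 the control was at the floor and the combined sample above it, and 37 of these were at least 2-fold higher, the largest at least 10.2-fold. In another 74 the combined sample was at the floor and the control above it, and 46 of these were at least 2-fold lower, the largest at least 6.95-fold. Those folds are lower bounds. A further 72 were at the floor only in a single treatment, and 15 were at the floor in both the control and the combined sample and have no change. What follows uses the 649 probes, of which 129 were higher and 142 lower by 2-fold or more with both treatments.

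The largest higher values with both treatments were those of R596 and RG500. R596 had a normalized intensity of 0.167 in the control, 0.964 with heat, 1.51 with hypohydration and 1.44 with both, an 8.66-fold combined difference. All 3 treated samples of R596 lay well above the control. RG500 read 0.149 in the control, 0.313 with heat, 1.05 with hypohydration and 1.17 with both, a 7.84-fold difference. The control values of both probes lay close to the floor, and in the deposited values the combined differences were 11.7-fold and 11.5-fold.

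The largest lower values were those of RG013 and RG307, and they reached them by different routes. RG013 read 1.18 in the control, 0.937 with heat, 0.242 with hypohydration and 0.164 with both, which is 7.18-fold lower than the control. Here hypohydration alone already gave a 4.86-fold lower value. RG307 read 0.846 in the control, 0.782 with heat, 0.593 with hypohydration and 0.154 with both, which is 5.48-fold lower. With either treatment alone RG307 differed from the control by less than 1.5-fold in these normalized values. In the deposited values the combined differences were 5.32-fold and 3.40-fold. The hypohydration change of RG013 was -2.28 log2 units here, -1.29 in the deposited values and -2.08 with median scaling. That of RG307 was -0.51, 0.03 and -0.76 in the same order, the last of these over 1.5-fold. The combined values of both probes lay close to the floor.

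After quantile normalization, the changes with the single treatments differed in size over the same 649 probes. Heat alone gave 73 probes at least 2-fold higher (11.2%) and 61 lower by 2-fold or more (9.40%) than the control. Hypohydration alone gave 113 higher (17.4%) and 102 lower (15.7%). The median absolute change was 0.43 log2 units with heat, 0.70 with hypohydration and 0.85 with both. All 3 changes use the same control sample, so an error in that sample enters each of them alike. The hypohydrated sample had the narrowest deposited spread (SD 0.66, against 1.49 for the control), and normalization gave it the same distribution as the others. The counts for single treatments were not recomputed under other scalings, so their order rests on this normalization.

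For each probe the log2 changes of both single treatments were added, and the departure was taken as the combined change minus this sum. On a log2 scale this sum means that the folds multiply. A probe was classed where the combined or the summed change was at least 2-fold, which held for 390 of the 649 probes, and 259 were under 2-fold in both. A departure under 2-fold was called additive. Larger departures were called opposite where the combined change and the sum had opposite signs and each was at least 1.5-fold, and otherwise less or more than additive by the size of the combined change against the sum. Of the 390, 241 were additive (61.8%), 118 less than additive (30.3%), 25 more than additive (6.41%) and 6 opposite (1.54%). Where the change with a single treatment was under 2-fold, a combined value equal to the other treatment alone could also be called additive. For such probes the class does not separate the adding of both changes from the other treatment alone. Over all 649 probes, classed or not, the departure was under 2-fold in 73.8%. Less than additive was thus the commonest departure, with 118 of the 149 probes that departed. The scatter of combined against summed changes shows the 4 classes.

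**Figure D1:**
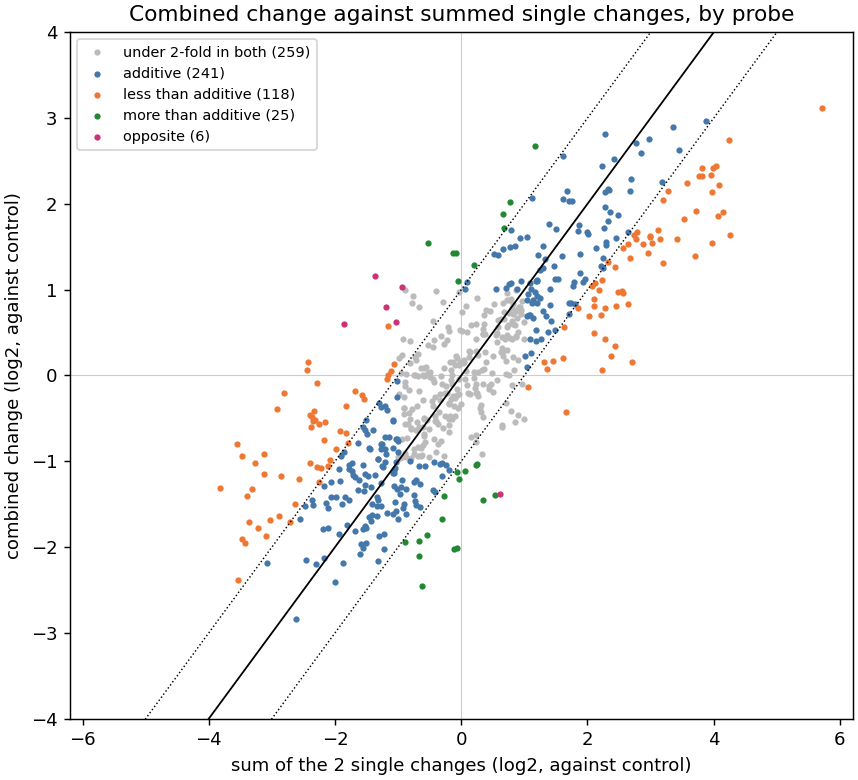
Combined change (vertical, log2, combined sample against control) against the sum of the heat and hypohydration changes (horizontal, log2), 1 point for each of 649 probes, coloured by class. The solid line marks equality and the dotted lines a 2-fold departure. The 118 less than additive probes lie outside the dotted lines, below the line of equality on the right and above it on the left.

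Additive probes were split into 106 with a positive and 135 with a negative sum. In the 106 the median change was 0.43 log2 units with heat, 1.11 with hypohydration and 1.27 with both. In the 135 it was -0.29, -0.95 and -1.26. In both directions the median hypohydration change was the larger of the single changes.

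The additive probes with the largest sums were RG500 and RG199 on the higher side. RG199 read 0.147 in the control, 0.515 with heat, 0.455 with hypohydration and 0.906 with both. Its combined change of 2.63 log2 units stood against a sum of 3.45. RG199 had similar values with either treatment alone, and the combined sample lay above both. Both probes were less than additive in the deposited values and with median scaling, where their departures were -1.17 and -1.06 for RG500 and -1.44 and -1.33 for RG199.

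On the lower side these were R325 and RG013. R325 read 1.20 in the control, 1.13 with heat, 0.152 with hypohydration and 0.263 with both. Its combined change was -2.19 against a sum of -3.08. Nearly all of the R325 sum came from hypohydration, whose value lay close to the floor. The level given by the R325 sum, 0.142, lay just under the floor. RG013, described above, had a combined change of -2.84 against a sum of -2.61, the closest match of the additive probes named. R325 and RG013 were additive under both other scalings.

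In less than additive probes the median change with both treatments was no larger than that with 1 of the treatments alone. In the 65 with a positive sum the median change was 1.32 log2 units with heat, 1.54 with hypohydration and 1.39 with both, where the sum was 2.70. In the 53 with a negative sum it was -1.39, -1.17 and -0.80, where the sum was -2.38. In the 65, the combined sample differed from the hypohydrated sample by a median of -0.14 log2 units and from the heat sample by -0.11. The median normalized intensity of these 65 probes was 0.241 in the control, 0.707 with heat, 0.748 with hypohydration and 0.702 with both. In the 53 it was 0.691, 0.245, 0.287 and 0.403 in the same order. The combined sample of the 53 lay above the hypohydrated sample by a median of 0.28 log2 units and above the heat sample by 0.48. Classing needs a combined value above the floor, which favours higher combined values in the 53. These medians were not recomputed under other scalings. The rule for the class, a large sum with a smaller combined change, itself favours probes whose control differs from the other samples, so these levels are a description.

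The control sample enters both single changes of the sum but only once the combined change. In 63 of the 65 the control was the lowest of the 4 samples (96.9%), and in 47 of the 53 it was the highest (88.7%). In the additive probes these counts were 78 of 106 (73.6%) and 105 of 135 (77.8%), and over all 649 probes the control was lowest in 29.0% and highest in 32.2%. With 1 control sample, a control value that is too low or too high by error and a response that does not grow with the second treatment cannot be told apart. The range of the measurement sets a further limit. In 31 of the 118 probes, all among the 53 with a negative sum, the sum called for a level under the floor. Probes at the floor in the combined sample were not classed, so a probe that followed such a sum to the floor was left out. In 1 (R596) the sum called for a level of 8.75, above the highest normalized value of any probe (5.05). The sum also called for a level under the floor in 10 of the 241 additive, 0 of the 25 more than additive and 2 of the 6 opposite probes.

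R596 and R342 had the largest positive sums of this class. R596 had a sum of 5.72 log2 units against a combined change of 3.11, with the values given above. R342 read 0.195 in the control, 0.919 with heat, 0.791 with hypohydration and 0.604 with both. For R342 the combined value lay below both single treatments. Its combined change was 1.63 against a sum of 4.26.

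RG171 and R382 had the largest negative sums. RG171 read 0.767 in the control, 0.181 with heat, 0.229 with hypohydration and 0.309 with both. R382 read 0.609 in the control, 0.144 with heat, 0.220 with hypohydration and 0.351 with both. In both probes the combined sample lay above each single treatment here and below the control. Against the hypohydrated sample this order depends on the scaling. The log2 difference of the combined from the hypohydrated sample was 0.43 for RG171 and 0.67 for R382 here, -0.39 and -0.23 in the deposited values, and -0.11 and 0.05 with median scaling. The combined changes were -1.31 and -0.80, against sums of -3.83 and -3.55. The heat value of R382 lay just above the floor. R596, R342, RG171 and R382 were less than additive under all 3 scalings.

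**Figure D2:**
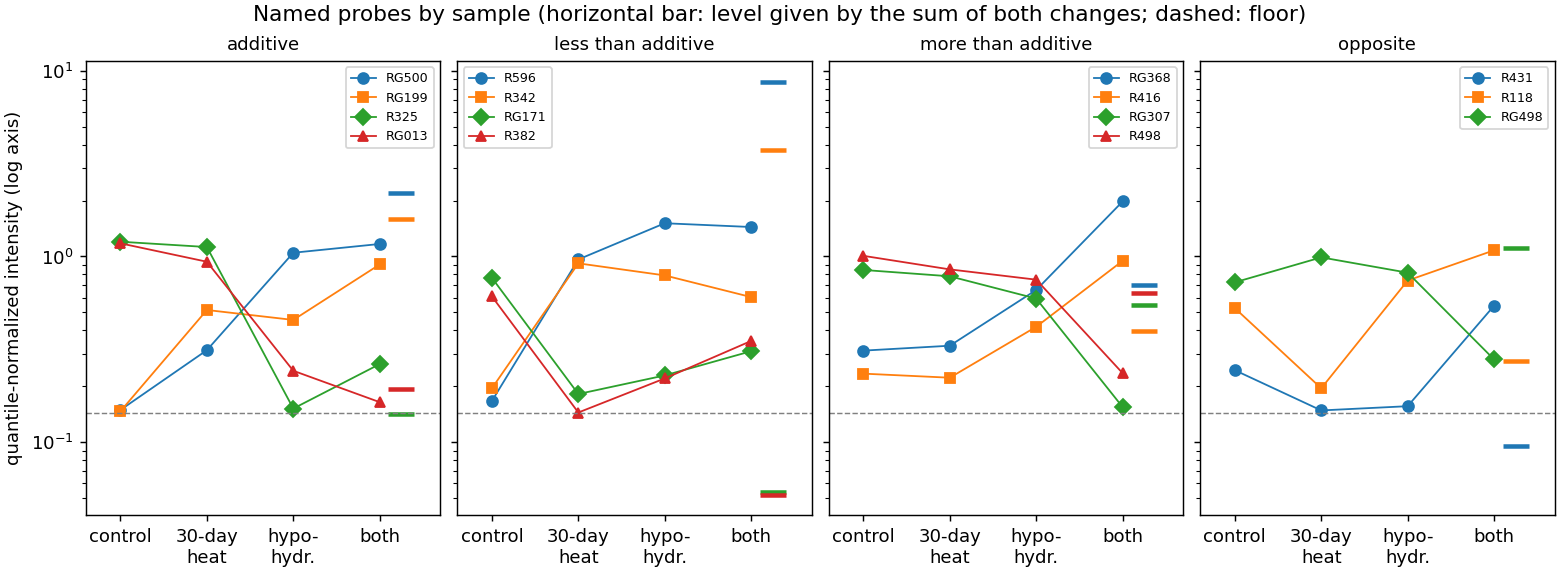
Quantile-normalized intensity (log axis) of the named probes of each class in the control, heat, hypohydrated and combined samples, with 1 symbol per sample and lines joining a probe's values. Horizontal bars mark the level that the sum of both changes would give, and the dashed line the floor of 0.143. For R596 the bar stands at 8.75 and the combined value at 1.44.

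In more than additive probes the median change was under 2-fold with either treatment alone and over 2-fold with both, which the rule for the class favours. In 9 the combined sample was higher than the control, with a median change of 1.55 log2 units against a median sum of 0.21. In 16 it was lower, with a median of -1.56 against -0.09. Lower values therefore made up 16 of the 25, where 201 of all 390 classed probes had a lower combined value. In these 16 the median intensity was 0.871 in the control, 0.819 with heat, 0.691 with hypohydration and 0.227 with both, with the combined sample lowest.

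Among the 9, RG368 and R416 had the largest combined change. RG368 read 0.311 in the control, 0.330 with heat, 0.660 with hypohydration and 1.98 with both, a 6.37-fold combined difference. R416 read 0.234, 0.222, 0.418 and 0.947 in the same order, a 4.05-fold difference. In both probes the heat sample matched the control to within 1.5-fold, the hypohydrated sample was intermediate and the combined sample highest. RG368 was more than additive under all 3 scalings, while the departure of R416 was 1.25 here, 0.85 in the deposited values and 0.96 with median scaling, which makes it additive there.

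Among the 16, RG307 and R498 had the largest combined change. RG307, given above, departed from its sum by -1.83 log2 units, and by -1.42 and -1.31 in the deposited and the median-scaled values. R498 read 1.01 in the control, 0.852 with heat, 0.750 with hypohydration and 0.235 with both, a 4.29-fold lower value. Its departure of -1.43 became -0.97 in the deposited values and -0.86 with median scaling, under 2-fold in each. Of the 25 probes of this class, 5 were in it under all 3 scalings, against 88 of the 118 less than additive and 127 of the 241 additive probes.

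In the 6 opposite probes the combined change went against the sum. In 5 the combined sample was higher than the control, with a median change of 0.80 log2 units where the sum was -1.19, and in 1, RG498, it was lower. R431 read 0.244 in the control, 0.148 with heat, 0.156 with hypohydration and 0.543 with both. R118 read 0.527 in the control, 0.195 with heat, 0.742 with hypohydration and 1.08 with both. R431 was thus lower with each treatment here and higher with both, while in R118 the heat value alone carried the negative sum. RG498 read 0.726, 0.989, 0.818 and 0.279 in the same order of samples. Of the 6 probes, 0 were opposite under all 3 scalings. The hypohydration change of R431 was -0.64 log2 units here, 0.99 in the deposited values and 0.20 with median scaling, and its sum was -1.36, 0.11 and -0.51. The departures of R431, R118 and RG498 nevertheless stayed over 2-fold, at 1.51, 1.83 and -1.78 in the deposited values.

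The combined sample was also set against each reference directly. Over the 649 probes its median absolute difference was 0.37 log2 units from the hypohydrated sample, 0.67 from the heat sample and 0.85 from the control. From the level given by the sum it was 0.55, and from the mean of both single treatments on the log2 scale it was 0.42. The combined sample lay within 2-fold of the hypohydrated sample at 89.5% of probes, of the mean of both single treatments at 84.1%, of the sum at 73.8%, of the heat sample at 69.3% and of the control at 58.2%. Among the control and both single treatments, the nearest to the combined value was the hypohydrated sample in 388 probes, the heat sample in 156 and the control in 105. With the level given by the sum as a further reference, the nearest was the hypohydrated sample in 263 probes, the sum in 171, the heat sample in 120 and the control in 95. The sum carries the errors of 3 samples and a single sample those of 1, so part of its larger distance is built in. The hypohydrated and combined samples also had the narrowest spread of deposited values, given above. Its part in their likeness was not tested, and their median absolute difference was 0.40 in the deposited values and 0.36 with median scaling. The distances from the heat sample, the control and the mean of both single treatments were not recomputed. The order of the references under other scalings was therefore not examined.

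**Figure D3:**
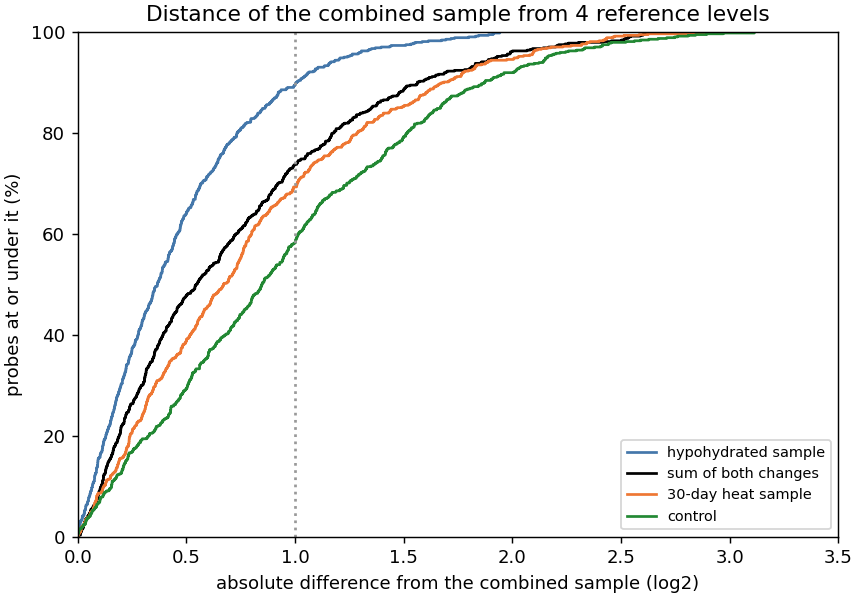
Share of the 649 probes (vertical, %) whose combined value lies at or under a given absolute log2 difference (horizontal) from the hypohydrated sample, the level given by the sum, the heat sample and the control. The dotted line marks 2-fold, where the curves stand at 89.5%, 73.8%, 69.3% and 58.2%.

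The departure from the sum is also the difference between the hypohydration change after heat and the one without heat, which share no sample. After 30 days of heat, hypohydration gave 103 of 649 probes at least 2-fold higher (15.9%) and 96 lower by 2-fold or more (14.8%). Of the 113 probes at least 2-fold higher with hypohydration in unheated rats, 49 were so after heat as well, 43.4% of the first list and 47.6% of the second. In those 113 the median hypohydration change was 1.60 log2 units without heat and 0.79 after it. Of the 102 at least 2-fold lower, 40 were so after heat, 39.2% and 41.7% of the lists, with medians of -1.39 and -0.80. At least 2-fold changes in opposite directions were seen in 0 of the 113 and 4 of the 102. The lists were chosen on the unheated change, which enlarges it relative to the other.

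The median absolute heat change was 0.37 log2 units in hypohydrated and 0.43 in euhydrated rats. Fewer probes passed 2-fold in hypohydrated rats, and fewer were found in both heat lists than in both hypohydration lists. In hypohydrated rats 30 days of heat gave 34 probes at least 2-fold higher (5.24%) and 34 lower by 2-fold or more (5.24%). Of the 73 at least 2-fold higher with heat in euhydrated rats, 7 were so in hypohydrated rats, 9.59% of the first list and 20.6% of the second. The median heat change of the 73 was 1.40 log2 units in euhydrated and 0.15 in hypohydrated rats. Of the 61 at least 2-fold lower, 5 were so in hypohydrated rats, 8.20% and 14.7% of the lists, with medians of -1.44 and -0.08. These lists too were chosen on the first change, and the difference between the hydration states was not tested. The change in euhydrated rats uses the control. That in hypohydrated rats uses the hypohydrated and combined samples, which had the narrowest deposited spread. The heat lists were not recomputed under other scalings.

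**Figure D4:**
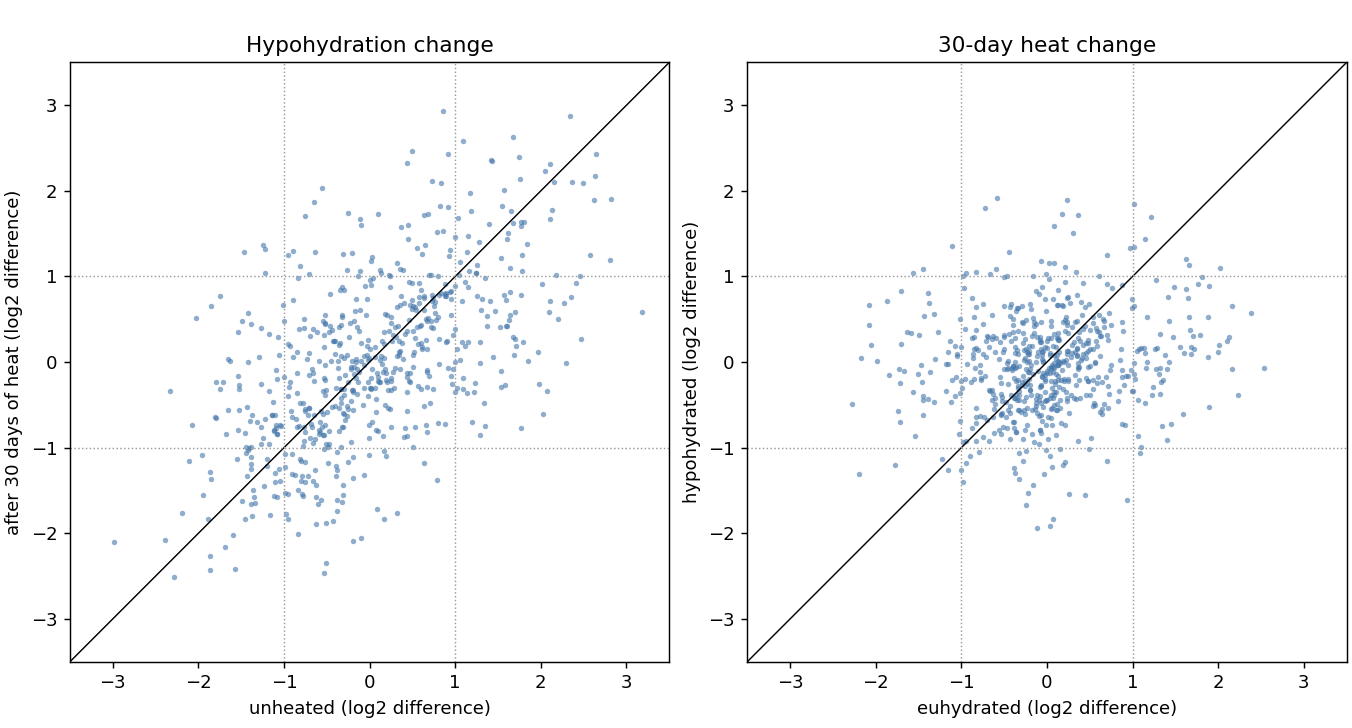
Left, log2 hypohydration change after 30 days of heat (vertical) against that in unheated rats (horizontal). Right, log2 heat change in hypohydrated (vertical) against that in euhydrated rats (horizontal). Each point is 1 of 649 probes, the solid line marks equality and dotted lines 2-fold. Of the probes at least 2-fold higher on the horizontal axis, 49 of 113 (left) and 7 of 73 (right) are also at least 2-fold higher on the vertical axis.

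Brighter probes followed the sum more closely. The 649 probes were split into 3 groups of like size by their mean normalized intensity over all 6 samples. The median absolute departure was 0.73 log2 units in the dimmest group (217 probes), 0.67 in the middle and 0.32 in the brightest (216 each). Of the classed probes, 54.1% were additive in the dimmest group, 60.8% in the middle and 74.3% in the brightest. Less than additive probes made up 38.4%, 30.1% and 18.8%. The median size of the combined change differed less between the groups, at 0.89, 0.96 and 0.77 log2 units. Combined changes of at least 2-fold were nevertheless fewest in the brightest group, with 44.7%, 48.1% and 32.4% of probes in the same order. Whether the closer match to the sum goes with these fewer changes was not tested.

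Additive probes were the most frequent class, less than additive the next, then more than additive, and opposite the least frequent under each of the 9 settings in the plot of classes by setting. Where any combined change against the sum is called opposite, whatever its size, opposite (22) overtook more than additive (16). The additive share of classed probes ranged from 45.3% at a 1.5-fold threshold to 77.9% at a 3-fold threshold. With the single changes added as intensities in place of log2 values, 273 probes were additive and 92 less than additive.

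**Figure D5:**
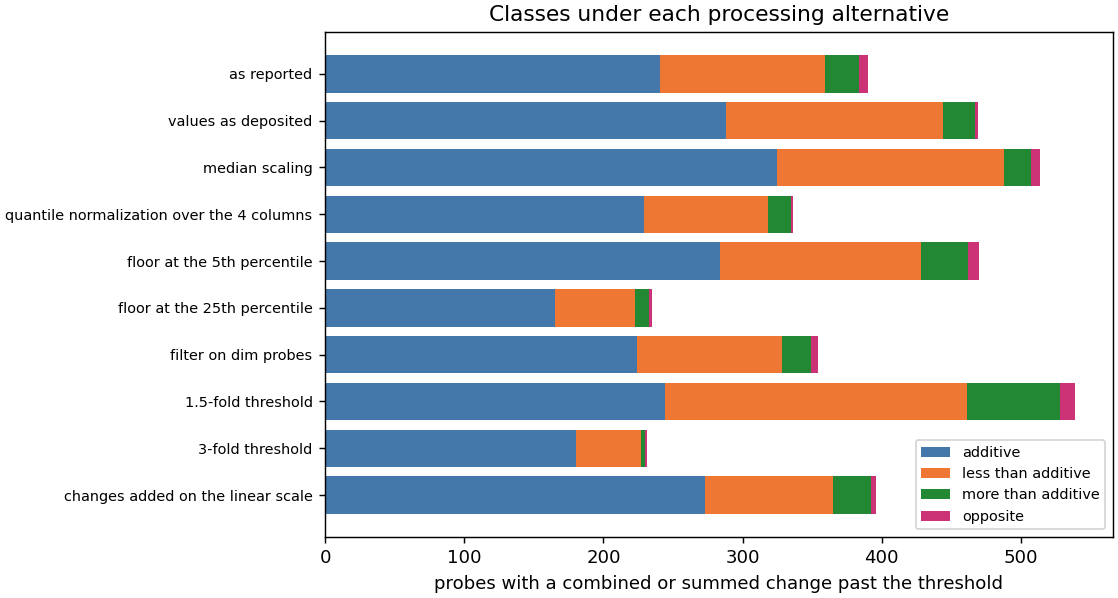
Number of probes (horizontal) in each class as reported and under 9 other processing settings. Bars start at 0. The bar as reported holds 241 additive, 118 less than additive, 25 more than additive and 6 opposite probes, and the additive segment is the longest in every bar.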

How the data were processed

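The data were 6 rat hypothalamus samples with 1 deposited column each. Total RNA was labelled with radioactive dATP by reverse transcription, per the labels' protocols. The authors deposited processed intensities for 884 probes. Their array design, scanner, background correction, normalization and any averaging of arrays were not given in the sources used here, so the scale and centring of the values stay unknown. With 1 sample a group the number of arrays limits the precision, which cannot be computed.

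Values were quantile-normalized over the 6 samples, floored at the 10th percentile (0.143) and taken to log2 with Python 3.11.15 and numpy 2.4.6. No dim-probe filter was applied. The class rule was run on simulated data, and its rate of error on the measured values was not tested. Named probes were those with the largest combined change (2 in each direction), and in each class 2 in each direction with the largest combined change (more, opposite) or sum (additive, less), among probes above the floor in all 4 samples. The opposite class held 1 lower probe. Fixed gene lists could not be used, since no probe had a gene name. The comparison and its rules were chosen with earlier results of these data known. Alternatives covered scaling, floor, filter, threshold and scale of addition.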

Additional observations from a re-analysis of the deposited data

Results flagged for a closer look

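R382 differed with hypohydration in opposite directions at the 2 heat stages, by at least 2-fold in each. Its hypohydrated minus euhydrated log2 difference was -1.47 in unheated rats and 1.28 after 30 days of heat. The difference was not tested, since each group holds 1 sample. In the deposited values the differences were -0.05 and 1.99, and with median scaling -0.84 and 1.31. The heat value of 0.144, from which the second difference is taken, lay just above the floor of 0.143.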

How the results depend on the processing

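No paired analysis was possible because each group holds 1 sample with no replicate number, and leaving out a replicate was not possible for the same reason. With values as deposited, 300 probes were higher and 112 lower with both treatments, and 2 were opposite. At a 1.5-fold threshold 284 were higher, 217 less than additive, 67 more than additive and 11 opposite. At 3-fold 97 were higher, 86 lower, 47 less than additive, 3 more than additive and 1 opposite. With the floor at the 25th percentile, which leaves fewer probes above it, 58 were less than additive, 10 more than additive and 2 opposite. Quantile normalization over the 4 samples alone gave 1 opposite probe. In an alternative chosen after seeing the data, which calls a combined change against the sum opposite at any size, 22 were opposite and 16 more than additive. The other counts of higher, lower and classed probes under these alternatives stayed within 1.5 times those reported, and so did the median departure (0.45 to 0.62 log2 units). The counts for single treatments, shared lists, nearest samples, brightness groups, prefixes and 2 days of heat were not recomputed. For the named probes, 17 distinct combined changes or departures were recomputed in the deposited values and with median scaling. Of these, 15 stayed at least 2-fold under each, and 0 changed sign. Values near the floor and the single control sample set the limits.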

Other observations

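The identifier prefixes differed in their classes. Of 231 classed probes with the prefix R, 56.3% were additive and 35.9% less than additive, and of 159 with the prefix RG, 69.8% and 22.0%. The median combined change was 0.07 log2 units over 501 measured R probes and -0.20 over 368 RG probes. What the prefixes stand for is not given in the sources used here, and the difference was not tested.

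By the same class rule, 2 days of heat with hypohydration gave 485 classed probes of 619 above the floor in its 4 samples, of which 32.6% were additive, 54.0% less than additive, 7.42% more than additive and 5.98% opposite. The median absolute departure was 1.13 log2 units there and 0.55 for the 30-day combination. The 2-day samples had the widest deposited spread of the series. Their SD on the log2 scale was 1.89 with heat and 2.14 with heat and hypohydration, against 1.35 and 0.99 at 30 days. Both combinations use the same control and the same hypohydrated sample, and the difference between them was not tested.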
